A study of Homo sapiens with 12 samples.

Results

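Among 58735 genes counted in HK-2 cells, 6 rows carry the names of 5 structural noncoding RNAs made by RNA polymerase III: RN7SL1, RN7SL2, RN7SK, RMRP and RPPH1. They were picked by gene name for their response to vancomycin in these samples, so their vancomycin values are given as a description without a test. HK-2 is an immortalised human renal proximal tubular cell line. Its RNA was sequenced in 12 samples, 3 each from control cells given water (H2O in the labels) and from cells treated for 48 h. The treatments were iohexol at 75 mg I/mL, cisplatin at 5 μM and vancomycin at 4 mM. Iohexol is an iodinated contrast medium, cisplatin a DNA-binding chemotherapy drug and vancomycin a glycopeptide antibiotic, and all 3 can injure the kidney tubule. All samples were of this 1 line, and nothing in the labels says that the replicates were separate cultures, so the p-values measure the spread between these samples only.

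The only row with any count was RN7SL2, and it was 77.6-fold higher in the vancomycin group than in the control group. The other 5 rows, which are RN7SL1, RN7SK, RPPH1 and 2 rows named RMRP, were at 0 in every one of the 12 samples. The exons of those 5 rows coincide with the exons of another row of the same table, so the zeros cannot be read as absence of these RNAs from the cells. A vancomycin change was therefore measured for 1 of the 5 named RNAs.

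The RNAs of RN7SL1 and RN7SL2 are 7SL RNA, the scaffold of the signal recognition particle (SRP), which brings ribosomes that make secreted and membrane proteins to the endoplasmic reticulum. 7SK RNA holds the elongation kinase P-TEFb in an inactive complex, RMRP is the RNA of RNase MRP, which cleaves ribosomal RNA precursors, and RPPH1 is the RNA of RNase P, which trims the 5′ ends of transfer RNAs. RNA polymerase III ends such transcripts at a run of T in the DNA and adds no poly(A) tail, whereas these libraries were made from RNA bound to poly-T beads.

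RN7SL2 (ENSG00000274012) lies on chromosome 14 of GRCh38 at chr14:49862550-49862849, minus strand, as a single exon of 300 bases annotated as miscellaneous RNA. RN7SL1 (ENSG00000276168) lies on the same chromosome at chr14:49586580-49586878, plus strand, and RN7SL3, a further 7SL gene that is not among the 5 names, at chr14:49853616-49853914, minus strand, 8636 bases from RN7SL2.

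In the annotated transcripts of GENCODE 29, RN7SL2 and RN7SL1 were 98.3% identical, with 1 gap and 4 substitutions. RN7SL2 and RN7SL3 were 96.0% identical, with 11 substitutions. Of the 201 stretches of 100 bases in RN7SL2, 82.1% also occurred letter for letter in 1 or more of 5 other annotated genes, and 36 were found in RN7SL2 alone. Of the 270 stretches of 31 bases, 94.8% recurred in other genes. A read counted for RN7SL2 may thus have come from another 7SL gene, and the RN7SL2 value is best read as 7SL reads assigned to this row. How reads with several matches were treated is not given in the sources used here.

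The total counts lay between 14057282 and 18177109 per sample, highest in the vancomycin group (16738188 to 18177109), and 3 counts corresponded to 0.177 to 0.218 CPM, the count scaled to a common library size after normalisation. Of 15 proximal tubule markers, 10 passed the filter on low counts. The counts of KRT8 were 5435 to 14536 and those of the brush border receptor LRP2 only 0 to 3, so the line lacked this defining marker of its tissue. Low counts were also found for CUBN (7 to 33), SLC5A2 (7 to 35) and AQP1 (1 to 15), which passed, and SLC22A6 was at 0. GGT1 (1677 to 6184) and MME (445 to 1735) were well counted. Of 11 markers of other cell types, 2 passed (PECAM1 with 0 to 59 counts and SLC12A3 with 1 to 28).

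The raw counts of RN7SL2 were 19, 45 and 28 in the control samples. They were 34, 31 and 8 with iohexol and 96, 56 and 42 with cisplatin. With vancomycin they were 2399, 2401 and 2541. The 3 vancomycin samples stood far above the other 9, which overlapped each other except for iohexol against cisplatin.

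On the scale of normalised CPM, the level of RN7SL2 was 2.01 ± 0.738 in control (SD, n = 3), 1.62 ± 0.959 with iohexol, 3.91 ± 1.72 with cisplatin and 156 ± 6.02 with vancomycin. The vancomycin mean was 77.6 times the control mean, 96.3 times the iohexol mean and 39.9 times the cisplatin mean. The lowest vancomycin sample was 25.8 times the highest of the other 9. The fitted log2 fold change between vancomycin and control was 6.21 (SE 0.15), against a median of -0.01 over all genes tested, and it is given with no p-value because the gene was chosen on this contrast, in which 57.9% of all 15819 genes tested were called in either direction. The vancomycin samples also agreed closely, with a coefficient of variation of 3.85%, against 36.6% in control, 59.2% with iohexol and 43.8% with cisplatin, where the counts were low.

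Per kilobase of gene length, RN7SL2 had 6.72 CPM in control, 5.41 with iohexol, 13 with cisplatin and 521 with vancomycin. Among the 37511 genes with a count in any sample, ranked by mean CPM per kilobase, it stood at place 6209 in control, 7130 with iohexol, 3618 with cisplatin and 55 with vancomycin. It took between 0.0135% and 0.0143% of all counts in the vancomycin samples.

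**Figure D1:**
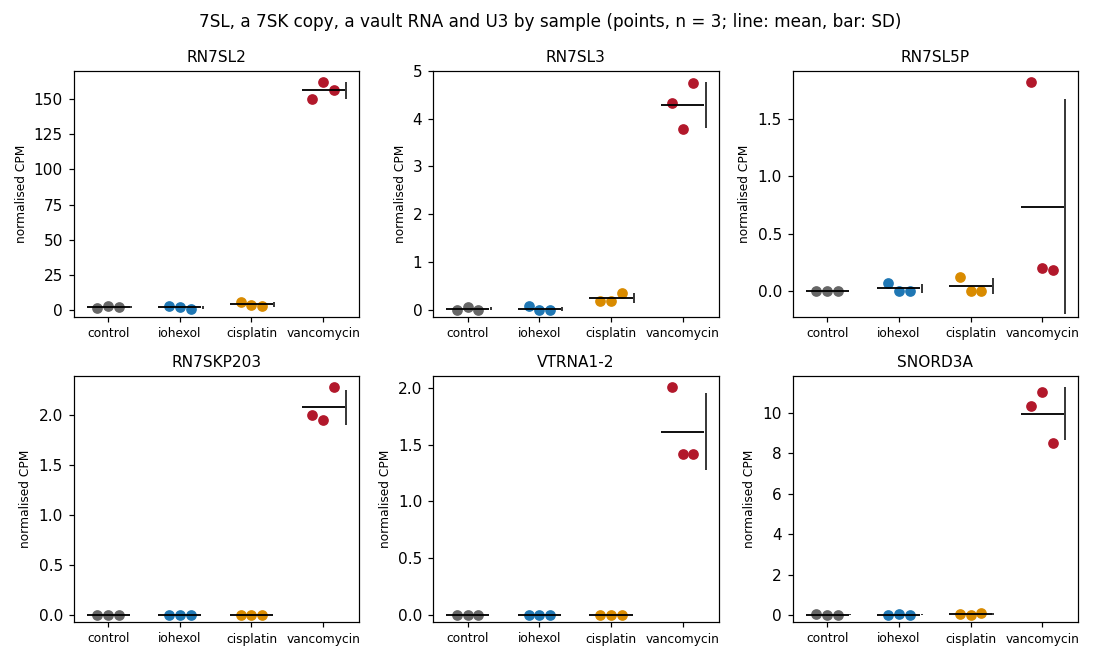
Normalised CPM (vertical axes, linear, each with its own scale) of 6 RNAs in the 4 groups, with 1 point per sample, a line at the mean and a bar for the SD (n = 3). RN7SL2 reached 150 to 162 CPM in the vancomycin samples and at most 5.82 CPM elsewhere, and RN7SL5P was high in only 1 vancomycin sample.

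The other drugs were compared with control by edgeR's quasi-likelihood test, with Benjamini-Hochberg adjustment over all genes tested and a call at an adjusted p under 0.05. With iohexol the log2 fold change of RN7SL2 was -0.30 (SE 0.45, edgeR adjusted p = 0.681), and the samples overlapped. Thus the 1 row of 6 that could be tested was not called with iohexol, nor at an unadjusted p under 0.05, nor by DESeq2 or limma-voom. In this comparison 21% of all 15657 genes tested were called in either direction by edgeR. The sign of the iohexol value was not stable: it was 0.01 without control replicate 2 and 0.11 without iohexol replicate 3.

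With cisplatin RN7SL2 rose by 0.94 on the log2 scale (SE 0.32, edgeR adjusted p = 0.0166). It was the 1 row of 6 that could be tested, in a comparison where 29.2% of the 15876 genes tested were called higher and 59.8% in either direction. The groups overlapped, since the lowest cisplatin sample had 42 counts and the highest control sample 45. The call rested on cisplatin replicate 1, with 96 counts: without it the log2 fold change was 0.54 and the edgeR adjusted p 0.17.

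Cisplatin and iohexol samples did not overlap for RN7SL2, but the margin was narrow. The highest iohexol sample had 2.35 CPM and the lowest cisplatin sample 2.48 CPM. The log2 difference, iohexol minus cisplatin, was -1.27 (SE 0.34, edgeR adjusted p = 0.00395 in the fit of all 12 samples), where 54% of 17073 genes were called and 26% were lower with iohexol. That fit includes the vancomycin samples, on which the gene was chosen. With the other choice of samples in the fit the difference was -1.26 (edgeR adjusted p = 0.0219). In the order of levels from iohexol through control and cisplatin to vancomycin, iohexol and control did not differ beyond their spread, cisplatin overlapped control, and all vancomycin samples lay above every other sample.

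RN7SK (ENSG00000283293, chr6:52995621-52995948, plus strand), the 7SK RNA gene, had 0 counts in all 12 samples. RPPH1 (ENSG00000277209, chr14:20343075-20343407, minus strand), the RNase P RNA gene, also had 0 in all. RMRP appears as a long intergenic noncoding RNA (ENSG00000269900, chr9:35657751-35658018, minus strand) and again as a ribozyme (ENSG00000277027, chr9:35657754-35658017, minus strand), and both rows had 0 in all samples. The same was true of RN7SL1. For a row at 0 the usual limit of 3 counts would be 0.177 to 0.218 CPM, but it cannot be used here, because a read from these loci lies in exons of 2 rows.

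Every one of these 5 rows is covered on its own strand by exons of another row. RN7SL1 is covered over 100% of its 299 bases by AL139099.4 (300 exon bases), which was at 0 too. RN7SK is covered over 100% of its 328 bases by RF00100 (331 bases), also at 0. The 2 RMRP rows cover each other over 98.5% and 100% of their 268 and 264 bases. RPPH1 is covered over 100% of its 333 bases by AL355075.4 (638 bases), which had 3 counts in all, 1 and 2 of them in vancomycin samples. RN7SL2 and RN7SL3 overlap no exon of another row. Of the genes RN7SL1, RN7SL2 and RN7SL3, these were the ones with counts.

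The same held across the table. Of 745 genes of up to 400 bases whose exons were covered to at least 95% by other genes on the same strand, 740 (99.3%) were at 0 in all 12 samples, and the highest total was 8 counts. Of 12560 genes of up to 400 bases with no exon overlap, 60.8% were at 0. Among protein-coding genes, 65.8% of the 406 covered on the same strand and 94.4% of the 18 covered on the opposite strand only were at 0, against 12.5% of 11097 without overlap. Of all 806 genes covered to at least 95% on the opposite strand only, 785 (97.4%) were at 0, against 41.0% of 41758 without overlap. The rule by which the authors' counting treated reads that match 2 genes, and its use of strand, are not given in the sources used here.

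**Figure D2:**
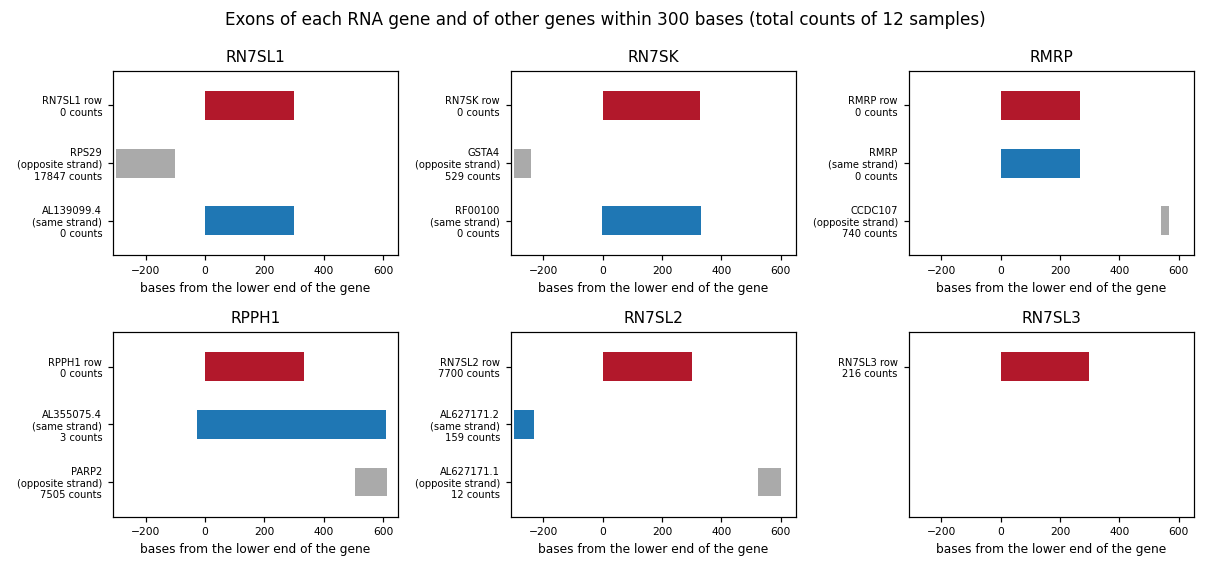
Exons of RN7SL1, RN7SK, RMRP, RPPH1, RN7SL2 and RN7SL3 (red) and of other genes within 300 bases on the same strand (blue) or the opposite strand (grey), on a horizontal axis in bases from the lower end of each gene, with the total counts of all 12 samples beside each row. The 4 genes at 0 are covered by a blue exon, and RN7SL2 (7700 counts) and RN7SL3 (216 counts) are not.

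Other rows carry part of the same sequences without an overlapping exon. RN7SL3 had 0, 1 and 0 counts in control, 1, 0 and 0 with iohexol, 3, 3 and 6 with cisplatin, and 69, 56 and 77 with vancomycin. It had 4.28 ± 0.482 CPM with vancomycin (SD, n = 3), and like RN7SL2 it was high in all 3 of these samples. RN7SL3 shares 72.9% of its 31-base stretches, 35.2% of its 50-base stretches and 12.0% of its 100-base stretches with other genes, so some of its counts may be reads of RN7SL2, and their share was not tested.

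Of 678 other 7SL genes and copies of up to 400 bases, 4 were at least 90% identical to RN7SL2 (identical bases as a share of RN7SL2), and RN7SL1 and RN7SL3 are 2 of them. RN7SL5P (92.3%) had 29, 3 and 3 counts with vancomycin, so that 1 sample held most of its counts, and at most 2 counts in any other sample. RN7SL300P, the remaining one, had 3 counts in all. RN7SL5P and RN7SL300P were named after their values were seen. The 677 annotated 7SL pseudogene copies summed to 14.4 ± 0.48 CPM in control (SD, n = 3), 16.8 ± 3.84 with iohexol, 18.7 ± 1.74 with cisplatin and 15.6 ± 1.55 with vancomycin. The summed level with vancomycin lay within the range of the other groups' means. Only 1 copy could be tested in the vancomycin comparison and 0 were called by edgeR, at an unadjusted p under 0.05 as well. Without a filter 3 copies were called higher, and 1 was without control replicate 3 or vancomycin replicate 1.

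The 7SK copies showed 1 row with the same contrast. RN7SKP203 had 0 counts in all 9 control, iohexol and cisplatin samples and 32, 29 and 37 with vancomycin, which is at least 10.3-fold higher than a floor of 3 counts per control library. It was identical to RN7SK at 88.1% of the RN7SK bases, place 7 of 292 copies of up to 400 bases, and the likeness was uneven. Over the first 261 bases of RN7SK, 248 were identical. The first 300 bases of the pair in GENCODE 29 are printed from 5′ to 3′ to show this, with capitals for bases that differ or have no partner.
RN7SK: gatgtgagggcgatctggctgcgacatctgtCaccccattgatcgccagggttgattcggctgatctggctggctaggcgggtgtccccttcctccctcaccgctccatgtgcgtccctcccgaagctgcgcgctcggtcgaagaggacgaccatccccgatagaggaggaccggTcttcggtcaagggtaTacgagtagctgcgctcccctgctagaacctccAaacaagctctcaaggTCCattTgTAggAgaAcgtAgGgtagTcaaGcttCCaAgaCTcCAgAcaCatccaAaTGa
RN7SKP203: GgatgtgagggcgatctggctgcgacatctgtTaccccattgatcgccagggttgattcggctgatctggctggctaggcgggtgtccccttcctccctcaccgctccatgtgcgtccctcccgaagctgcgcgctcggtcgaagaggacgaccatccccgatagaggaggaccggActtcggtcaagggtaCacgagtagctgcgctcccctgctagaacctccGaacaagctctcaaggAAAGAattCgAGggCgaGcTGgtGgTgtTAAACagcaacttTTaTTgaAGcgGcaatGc

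Of the stretches of 50 bases in RN7SKP203, 33.2% also occurred in other genes, and of those in RN7SK 77.1%. Summed over all 293 7SK copies, the level was 7.8 ± 0.435 CPM in control, 9.32 ± 1.07 with iohexol, 7.78 ± 0.497 with cisplatin and 8.1 ± 2.28 with vancomycin (SD, n = 3). Of 4 copies tested with vancomycin 1 was called higher, RN7SKP203 itself. It passed the filter only through the vancomycin samples, so that a difference was favoured. RN7SKP275 had 37, 36 and 22 counts in control and 12, 17 and 8 with cisplatin, and was called lower there, also from low counts. RMRP and RPPH1 shared no stretch of 31 bases with another gene at a different place.

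Of 18 other RNA polymerase III genes in the table, 4 were at 0 in all samples and 9 had 20 counts or fewer in all. The vault RNA gene VTRNA1-2, whose RNA belongs to the vault particle, had 0 counts in the other 9 samples and 32, 21 and 23 with vancomycin, at least 8.02-fold above the same floor. VTRNA1-2 shares no 31-base stretch with another gene. VTRNA1-3 had 3, 2 and 5 and VTRNA1-1 2, 4 and 1 counts with vancomycin, and both together had 1 count in the other 9 samples.

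BCYRN1, the BC200 RNA of translational control in neurons, had 9, 19 and 18 counts with vancomycin and at most 2 in any other sample. It is the one RNA of these with a long internal run of A (11 bases, a length reached by 5.26% of annotated transcripts). The longest run was 4 in RN7SL1, RN7SL2 and RN7SL3, which 86.9% of 206694 annotated transcripts reach, 3 in RN7SK and RMRP and 2 in RPPH1 and VTRNA1-2. RNU6-8, a U6 spliceosomal RNA gene, had 4, 12 and 16 counts with vancomycin and at most 4 elsewhere. RNA5SP18, a 5S ribosomal RNA pseudogene, had 14, 20 and 30 counts with vancomycin against 23, 21 and 38 in control, a log2 fold change of -0.47 (SE 0.37, edgeR adjusted p = 0.285). The Y RNA genes RNY1, RNY3 and RNY4 had 1, 1 and 2 counts in all. RN7SL3 and VTRNA1-2 were called higher of 3 genes of this list that were tested, and both were tested only because of their vancomycin counts.

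Small RNAs made by RNA polymerase II gave a mixed picture. SNORD3A, a gene of the U3 RNA that guides ribosomal RNA processing, had 1, 0 and 0 counts in control, 0, 1 and 0 with iohexol, 1, 0 and 2 with cisplatin, and 165, 163 and 138 with vancomycin. SNORD3A too was tested only through the vancomycin samples. It shares 99.7% of its 31-base and 75.5% of its 100-base stretches with other genes, so some of its counts may be reads of those genes. The U3 genes SNORD3B-1 and SNORD3B-2 had 2, 4 and 1 and 2, 3 and 3 counts with vancomycin. The 26 genes of spliceosomal, U3 and related RNAs summed to between 0 and 7 counts in a control sample and to between 1 and 5 in an iohexol sample. The sum was 24 to 44 counts in the cisplatin samples and 152 to 178 in the vancomycin samples. With cisplatin the counts were spread over RNU5A-1 (9, 1 and 13 counts), SNORD3B-1 (3, 2 and 10) and RNU4-2 (3, 4 and 4), none of which could be tested.

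Of 932 snoRNAs beside these, 9 could be tested with vancomycin, 2 were called higher and 2 lower (22.2% each, below the 29% and 28.8% of all genes). SNORD104 had 2, 8 and 4 counts in control and 15, 35 and 34 with vancomycin, and SNORD99 had 5, 8 and 7 against 24, 25 and 28. Both passed the filter only through the vancomycin samples, so that a difference was favoured. SNORA73B had 29, 20 and 31 counts in control and 15, 10 and 8 with vancomycin. SNORD62B had 15, 11 and 24 against 11, 3 and 6, and its call was lost without control replicate 3 and without vancomycin replicate 2 or 3 (edgeR adjusted p 0.0642 to 0.136). At low counts such as these the filter itself takes in genes by the group where they are high. The class summed to 32.3 ± 4.75 CPM in control and 35.8 ± 0.505 with vancomycin, and to 46.3 ± 5.22 with cisplatin (SD, n = 3). With cisplatin 3 of 12 snoRNAs were called higher (25%, below the 29.2% of all genes), all 3 low in control, among them SNORA71C with 8, 13 and 23 counts in control and 57, 51 and 62 with cisplatin. With iohexol 1 of 6 was called higher, also low in control. The 23 genes of small Cajal body RNAs summed to 1.38 ± 0.402 CPM in control, 1.30 ± 0.251 with iohexol, 2.36 ± 0.532 with cisplatin and 1.43 ± 0.532 with vancomycin (SD, n = 3), and 0 of 1 tested with cisplatin were called by edgeR, at an unadjusted p under 0.05 as well.

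Taking all genes annotated as miscellaneous RNA, snRNA, snoRNA or scaRNA without RN7SL2, the summed level was 112 ± 10.5 CPM in control, 135 ± 29.3 with iohexol, 149 ± 17.3 with cisplatin and 126 ± 8.86 with vancomycin (SD, n = 3). In the vancomycin group RN7SL2 alone, at 156 CPM, was thus above the summed level of the other rows. That sum holds nothing for RN7SL1 and RN7SK, whose rows were at 0 and are covered by another row. It is therefore no measure of all small RNA in the cells. The median log2 fold change with vancomycin was -0.06 over 182 tested genes of up to 400 bases and 0.31 over 1477 genes between 1000 and 2000 bases. Of the genes of up to 400 bases, 27.5% were called higher and 23.1% lower, beside 29% and 28.8% of all genes.

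The clustered histone genes can be set beside RN7SL2, since replication-dependent histone messages end in a stem-loop without a poly(A) tail. The counts and sums here take every gene named as a clustered histone gene. Which of their reads came from untailed messages was not tested. With vancomycin 18 of 24 tested were called higher and 0 lower by edgeR (0 lower at an unadjusted p under 0.05), where 29% of all genes tested were called higher. Of the 18 called, 10 were low in control, and the count was 10 when 10 counts were asked of every sample. With iohexol 12 of 21 were called higher (background 11.2%), and 6 of these 12 were low in control. With cisplatin 11 of 18 were called higher and 1 lower (29.2% and 30.6%), and 4 of these 11 were low in control. Calls of histone genes were thus mostly higher in all 3 comparisons, but single rows differed among the drugs. For the calls low in control a difference was favoured, since such genes passed the filter through treated samples. HIST1H4C had 0 counts in control, 2, 0 and 1 with iohexol, 2, 1 and 0 with cisplatin, and 53, 52 and 63 with vancomycin. HIST1H3C had 0 counts in control, 2, 1 and 1 with iohexol, 3, 5 and 3 with cisplatin, and 17, 22 and 16 with vancomycin. Like RN7SL2, HIST1H4C and HIST1H3C were thus far higher with vancomycin than in the other groups. HIST1H1E had 0, 0 and 2 counts in control, 23, 15 and 17 with iohexol and 25, 41 and 22 with vancomycin. HIST1H4C, HIST1H3C and HIST1H1E passed the filter only through treated samples, so that a difference was favoured.

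The summed histone level was 53.3 ± 4.77 CPM in control, 120 ± 5.6 with iohexol, 92 ± 1.8 with cisplatin and 191 ± 15.6 with vancomycin (SD, n = 3). Within the vancomycin sum, the mean of HIST1H2BK was 65.45 CPM, that of HIST1H4C 3.57 and that of HIST1H3C 1.18. The sum is therefore no measure of untailed histone messages alone. The mitochondrial ribosomal RNAs MT-RNR1 and MT-RNR2 rose with vancomycin by 1.41 (SE 0.09, edgeR adjusted p = 4.81e-12) and 0.71 (SE 0.09, edgeR adjusted p = 2.4e-07) on the log2 scale. Both were also called higher with cisplatin and 1 of the 2 with iohexol, the MT-RNR2 calls there being lost when single samples were left out. The nuclear long noncoding RNAs MALAT1 and NEAT1 fell with vancomycin by 0.35 (SE 0.09, edgeR adjusted p = 0.00182) and 0.39 (SE 0.11, edgeR adjusted p = 0.00402), and rose with iohexol by 0.83 and 0.94. The NEAT1 call with vancomycin was lost without control replicate 3 (log2 fold change -0.22, edgeR adjusted p = 0.0793). The 22 mitochondrial tRNA genes summed to 202 ± 18.8 CPM in control, 210 ± 14.5 with iohexol, 245 ± 6.67 with cisplatin and 387 ± 22.6 with vancomycin (SD, n = 3). Of 16 tested with vancomycin, 4 were called higher and 6 lower, beside 29% and 28.8% of all genes. The histone and mitochondrial tRNA sums and these mitochondrial ribosomal and nuclear RNAs moved by less than RN7SL2 (6.21 on the log2 scale with vancomycin). Single rows tested only through the vancomycin samples had larger log2 fold changes, such as HIST1H4C at 8.76 and SNORD3A at 8.32. The part in the RN7SL2 result of how much untailed RNA passed the poly-T beads in each group was not tested.

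**Figure D3:**
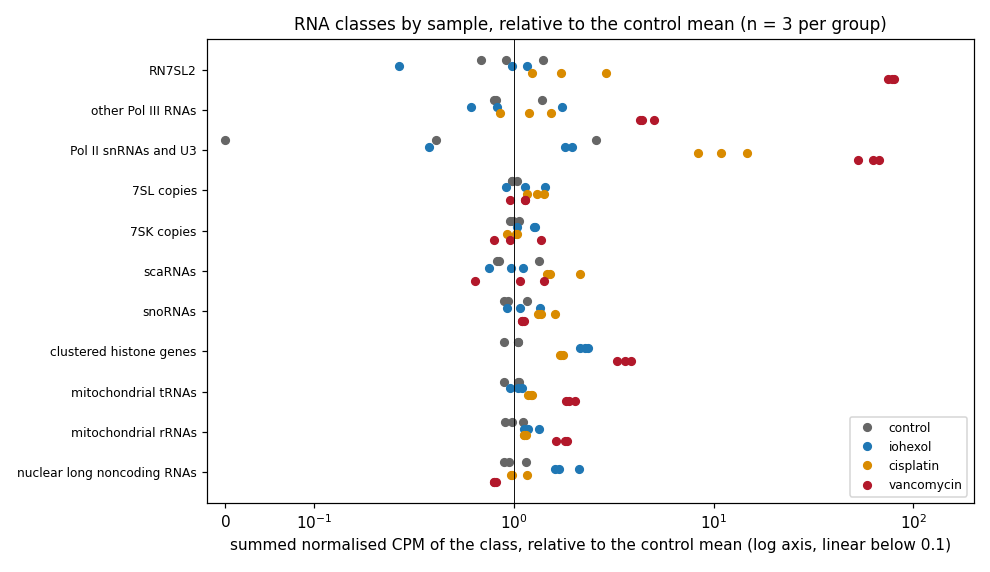
Summed normalised CPM of RNA classes in each sample, relative to the mean of the 3 control samples (horizontal axis, log scale and linear below 0.1), coloured by group. The vancomycin points of RN7SL2 lie near 77.6 times control, the spliceosomal and U3 class also lies far right, carried by SNORD3A, and the summed 7SL and 7SK copies lie near 1.

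Of the genes beside RN7SL2, RN7SL3 (8636 bases away) was high with vancomycin in the same samples, as given above. AL627171.2, a long noncoding RNA gene whose span holds RN7SL2 on the same strand without sharing an exon, had 14, 6 and 6 counts in control and 9, 4 and 2 with vancomycin, too few to be tested. With cisplatin it had 35, 30 and 28 counts, above all control samples, and it entered that test only through these samples. AL627171.1, 223 bases from RN7SL2 on the opposite strand, had at most 5 counts in any sample. RPS29, a ribosomal protein gene whose span holds RN7SL1 on the opposite strand, rose with vancomycin by 1.01 (SE 0.13, edgeR adjusted p = 8.51e-07). CCDC107, 272 bases from RMRP, rose by 1.27 (SE 0.22, edgeR adjusted p = 2.27e-05). PARP2, 175 bases from RPPH1, fell by 0.37 (SE 0.11, edgeR adjusted p = 0.00519). GSTA4, 243 bases from RN7SK, had a log2 fold change of -0.05 (SE 0.24, edgeR adjusted p = 0.881), and CCNB1IP1, the gene before RPPH1, one of -0.19 (SE 0.10, edgeR adjusted p = 0.117). ICK, 5331 bases after RN7SK, fell by 0.39 (SE 0.14, edgeR adjusted p = 0.0246), a call lost without control replicate 1 or vancomycin replicate 3 (edgeR adjusted p 0.0899 and 0.102). SIT1, RPL32P29 and RF00019 had at most 2 counts in any sample.

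By the mean absolute difference, over the 12 samples, of log2 CPM from each gene's own control mean, the 5 genes most like RN7SL2 were AC108134.2 (0.42), AL355032.1 (0.52), SNORD3A (0.59), RN7SL3 (0.71) and RPSAP47 (0.77), against a median of 2.1 over 17072 genes. AC108134.2, a long intergenic noncoding RNA, had 162, 149 and 134 counts with vancomycin and at most 4 in any other sample. AL355032.1, a processed pseudogene, had 214, 250 and 232 with vancomycin and at most 4 elsewhere. RPSAP47, a ribosomal protein pseudogene, had 496, 556 and 589 with vancomycin and at most 10 elsewhere. These 2 pseudogenes were thus nearly absent outside the vancomycin group, whereas RN7SL2 had counts in every sample. They were picked from these data for their likeness to RN7SL2, so the shared rise with vancomycin follows from the choice. All processed pseudogenes together took 0.303% of counts in control and 0.483% with vancomycin, and 138 of the 451 tested were called higher and 83 lower, beside 29% and 28.8% of all genes.

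The protein partners of the named RNAs were measured from their own messages, and 70 genes of 6 lists could be tested with vancomycin. Of these 16 were called higher and 18 lower (22.9% and 25.7%), near the 29% and 28.8% of all genes. With cisplatin 35 of 69 were higher and 7 lower (50.7% and 10.1%, against 29.2% and 30.6%). With iohexol 0 were higher and 3 lower, at an unadjusted p under 0.05 2 and 11, and 0 were higher by DESeq2 or limma-voom (11.2% and 9.77% of all genes).

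Of 8 SRP protein genes, 2 were higher and 3 lower with vancomycin (25% and 37.5%, near the 29% and 28.8% of all genes). The higher ones were 1 rather than 2 by library size only, without a filter and when control replicate 2 or 3 or vancomycin replicate 1 or 2 was left out, and SRPRB (log2 fold change 0.23, edgeR adjusted p = 0.0469) lost its call in each of these. SRP14, whose protein binds 7SL RNA at its Alu end together with that of SRP9, rose by 0.81 on the log2 scale (SE 0.09, edgeR adjusted p = 4.45e-08). SRP9 itself fell by 0.44 (SE 0.10, edgeR adjusted p = 0.000434). SRP72, whose protein binds the other end of 7SL, fell by 0.47 (SE 0.09, edgeR adjusted p = 8.9e-05). No gene of the list had a log2 fold change near the 6.21 of RN7SL2. With cisplatin 3 of 8 were higher (37.5%, against 29.2% of all genes). Among them, SRPRB, a receptor subunit, rose by 0.42 (SE 0.08, edgeR adjusted p = 0.000157) and SRP68 by 0.31 (SE 0.06, edgeR adjusted p = 0.000431). With iohexol 0 of the 8 were called by edgeR, with 4 lower at an unadjusted p under 0.05.

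Of 7 genes of the 7SK complex and P-TEFb, 1 was higher and 1 lower with vancomycin (14.3% each, against 29% and 28.8% of all genes). CDK9, the kinase of P-TEFb, rose by 0.70 (SE 0.09, edgeR adjusted p = 1.05e-06). CCNT1, its cyclin, fell by 0.27 (SE 0.10, edgeR adjusted p = 0.0242), a call lost without control replicate 2 or vancomycin replicate 2 or 3 (edgeR adjusted p 0.0799 to 0.117). With cisplatin 4 of 7 were higher (57.1%, against 29.2% of all genes). Among them, HEXIM1, the P-TEFb inhibitor, rose by 1.17 (SE 0.08, edgeR adjusted p = 1.52e-09) and MEPCE, which caps 7SK RNA, by 0.86 (SE 0.09, edgeR adjusted p = 4.44e-07).

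Of 11 genes of RNase P and RNase MRP proteins, 4 were higher and 1 lower with vancomycin (36.4% and 9.09%, against 29% and 28.8% of all genes). One of the 4, RPP21, had 4, 6 and 9 counts in control against 22, 15 and 32, and passed the filter only through the vancomycin samples. RPP25L rose by 0.81 and POP7 by 0.66 on the log2 scale. POP1, the largest protein of both enzymes, fell by 1.01 (SE 0.11, edgeR adjusted p = 6.35e-08). With cisplatin 8 of 10 were higher (80%, against 29.2% of all genes), with RPP25L and POP7 both at 0.94.

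Of 13 subunits of RNA polymerase III, which transcribes all 5 named RNAs, 4 were higher and 2 lower with vancomycin. These are 30.8% and 15.4%, against 29% and 28.8% of all genes. POLR3G fell by 1.57 (SE 0.18, edgeR adjusted p = 7.36e-08), while POLR3GL, the subunit used in its place, rose by 0.66 (SE 0.20, edgeR adjusted p = 0.00695), a value of 0.50 with an edgeR adjusted p of 0.05 without control replicate 3. POLR3B fell by 0.54 and POLR1C rose by 0.49. POLR3G also fell with iohexol, by 1.25 (SE 0.18, edgeR adjusted p = 0.00056), where RN7SL2 was not called. With cisplatin 8 were higher and 1 lower (61.5% and 7.69%, against 29.2% and 30.6% of all genes), with POLR1C at 0.88 and POLR3D at 0.85.

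Of 17 genes of polymerase III transcription factors, 5 were higher and 3 lower with vancomycin (29.4% and 17.6%, against 29% and 28.8% of all genes). SNAPC1, part of the complex that starts transcription at the promoters of RN7SK, RMRP and RPPH1, fell by 1.21 (SE 0.12, edgeR adjusted p = 4.01e-09). GTF3C6, a TFIIIC subunit, rose by 0.65 (SE 0.10, edgeR adjusted p = 6.28e-06). BDP1 and GTF3C1 fell by 0.56 and 0.48. With cisplatin BRF2 rose by 0.94 and BRF1 fell by 0.66. With iohexol GTF3C3 and GTF3A fell by 0.44 and 0.39, and both calls were lost when control replicate 1 or 2 or iohexol replicate 1 or 2 was left out.

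Of 14 genes of La and of factors that bind, trim or extend RNA 3′ ends, 8 were lower and 0 higher by edgeR with vancomycin (28.8% and 29% over all genes, and 1 higher at an unadjusted p under 0.05), a median log2 fold change of -0.26 against -0.01 over all genes. The lower ones were 5 without vancomycin replicate 3, and 1 was called higher in 5 of the 8 alternatives. All 14 genes were longer than 4000 bases. Of all genes tested between 4000 and 8000 bases, 32.3% were lower and 26.9% higher with vancomycin, with a median of -0.05. Over 8000 bases these values were 41.9%, 21.3% and -0.17. The values over all genes are therefore not matched for length, and a comparison at matched length was not made. DIS3L, an exosome nuclease, fell by 1.07 (SE 0.13, edgeR adjusted p = 1.61e-07). TENT4B, which adds short A tails that mark nuclear RNAs for decay, fell by 1.03 (SE 0.11, edgeR adjusted p = 3.18e-08). EXOSC10, the nuclear exosome nuclease, fell by 0.51 and TROVE2, the Ro60 gene, by 0.38. With cisplatin 7 were higher and 4 lower (50% and 28.6%, against 29.2% and 30.6% of all genes). DIS3L2, a nuclease of U-tailed RNAs, fell there by 2.04 (SE 0.13, edgeR adjusted p = 2.97e-10) and LARP4B by 0.81.

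**Figure D4:**
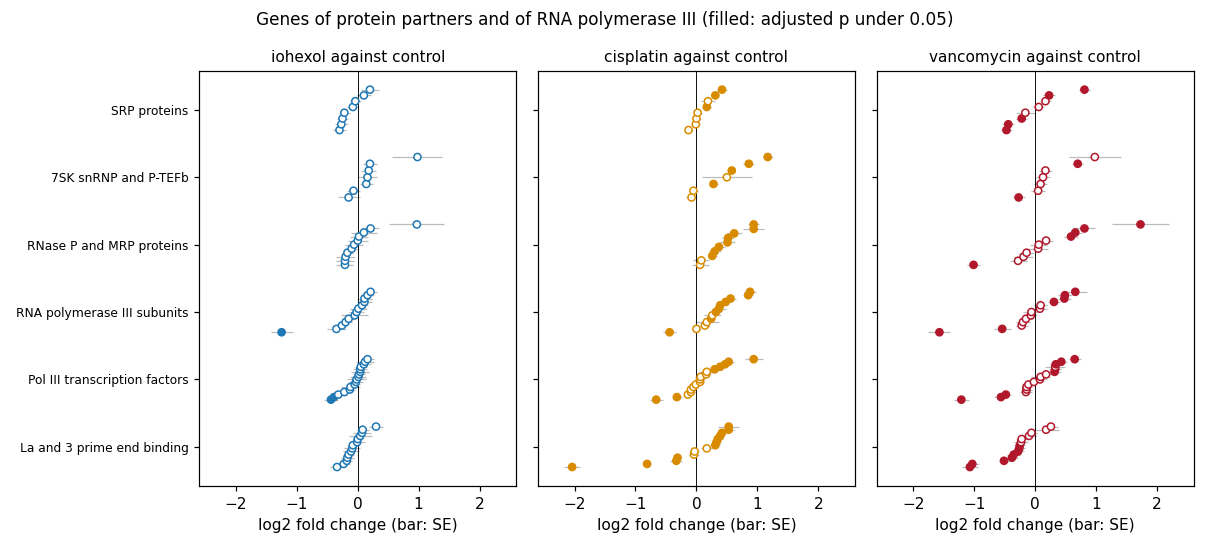
Log2 fold change against control (horizontal axes, bar for the SE) of the genes of 6 protein lists with iohexol, cisplatin and vancomycin, 1 point per gene, filled where the edgeR adjusted p was under 0.05. With vancomycin every filled point lies between -1.57 and 1.73, far below the 6.21 of RN7SL2, and the highest, RPP21, was tested only through the vancomycin samples. The 8 filled points of the La and 3′ end list lie below 0.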

How the data were processed

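RNA of HK-2 cells was sequenced in 12 samples of 4 groups (n = 3 each), grouped by the sample labels. Per the labels, RNA was selected with poly-T beads and libraries were made with an NEBNext Ultra kit. The submitters' processing notes name CASAVA 1.8, fastp, HISAT2 2.0.5, featureCounts 1.5.0-p3 and DESeq2 1.20.0. The strand setting, the treatment of reads with several matches and the annotation release are not given in the sources used here. The authors deposited raw counts of reads per gene, not normalised, for 58735 genes. All 58735 had the position of the same gene in GENCODE 29 (GRCh38), whose transcripts gave the sequences. The 7SL sequences are not reported here.

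Counts were tested with edgeR 4.0.16 in R 4.3.3 (TMM, filterByExpr at 10 counts and 15 in total, glmQLFit and glmQLFTest), in a separate fit per drug with the control samples. Iohexol and cisplatin were compared in the fit of all 12 samples. Benjamini-Hochberg adjustment was made over all genes tested, with a call at an adjusted p under 0.05. CPM used the total count times the TMM factor. A gene was called low in control when fewer than all 3 control samples reached the filter's level. Floors of 3 counts cover counting error only. Exon overlaps, shared stretches and alignments were computed with Python 3.11.15, pandas 2.3.3, numpy 2.4.6 and Biopython 1.88, and figures with matplotlib 3.10.9.

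The genes and gene lists (SRP, 7SK and P-TEFb, RNase P and MRP, polymerase III subunits and factors, La and 3′ end factors, other small RNAs, histones, mitochondrial and nuclear RNAs, cell type markers) were chosen with earlier results of these data known. Named were genes that overlap or neighbour the 5 RNAs, tested genes of the other polymerase III list, up to 4 genes per list called with vancomycin with the largest changes and no overlap of samples, up to 2 each for cisplatin and iohexol, and the 5 genes most like RN7SL2. Replicates differed by more than counting noise (chi-square per degree of freedom 2.28 to 15.5). Alternatives were DESeq2 1.42.0, limma-voom (limma 3.58.1), RLE factors, library size only, no filter, at least 10 counts in every sample, other samples in the fit, a replicate block and leaving out each sample.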

Additional observations from a re-analysis of the deposited data

How the results depend on the processing

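The log2 fold change of RN7SL2 with vancomycin (6.21) was 6.13 to 6.25 over 8 alternatives and 6.01 to 6.54 when 1 sample was left out. No value could be had for RN7SL1, RN7SK, RMRP and RPPH1, which were at 0. The replicate numbers did not pair the samples: the correlations between samples with the same number were -0.184 to 0.103, and 2 of 12 samples correlated best with their own number. With the replicate block, RN7SL2 was at 6.22 with vancomycin and 0.90 with cisplatin, and 1 protein-list gene rather than 3 was lower with iohexol.

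The call of RN7SL2 with cisplatin held in all 8 alternatives, and the members called were 0 to 1 when 1 sample was left out. Between iohexol and cisplatin the member called became 0 when 10 counts were asked of every sample, since RN7SL2 then was not tested. The iohexol value of RN7SL2 ranged from -0.66 to 0.11 when 1 sample was left out, turning to 0.01 and 0.11, and that of GSTA4 with vancomycin (-0.05) from -0.13 to 0.1, turning to 0.01 and 0.1.

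Protein-list genes higher with iohexol were 1 rather than 0 by library size only and in the fit of all samples, and 0 to 1 when 1 sample was left out. Lower ones (3) were 5 by DESeq2, 6 without a filter and 10 in the fit of all samples, and 1 to 10 when 1 sample was left out, with 10 without iohexol replicate 3, 5 without control replicate 3 and 1 without any one of the other 4. With cisplatin the 7 lower became 3 by library size only. Among the other noncoding RNAs, 16 higher with iohexol became 9 with 10 counts in every sample, and 0 lower became 1 in the fit of all samples. With cisplatin 16 higher became 28 without a filter and 10 with 10 counts in every sample. There 2 lower became 1 by library size only, 4 without a filter and 1 with 10 counts in every sample, and 1 to 2 when 1 sample was left out (1 without cisplatin replicate 1 or 2). With vancomycin 26 higher became 42 without a filter and 12 with 10 counts in every sample, and 4 lower became 2 with that filter, and 2 without control replicate 3. Fewer or more genes were tested under the filters, and other causes were not tested.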
